A study of Homo sapiens with 6 samples.

Results

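MCFD2 and 9 receptors or receptor subunits that carry proteins between the endoplasmic reticulum (ER) and the Golgi were followed in RNA-seq libraries of HEK293T cells, a human embryonic kidney line. The genes were MCFD2, LMAN1, LMAN2, LMAN2L, SURF4, ERGIC1, ERGIC2, ERGIC3, KDELR1 and KDELR2. They were found by symbol, and 10 of 10 were present among the 55767 gene symbols of the library tables. The set was put together by function and with the response of these same libraries already known, so the fold changes of its genes between the groups are given as descriptions, without p-values.

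The study compared 3 libraries of cells expressing a control hairpin (sh-control) with 3 libraries labelled as expressing a hairpin against RREB1 (sh-RREB1), a zinc finger transcription factor. All cells were the same line, grown in DMEM with 10% fetal bovine serum. According to the paper, the hairpins of both groups were delivered by lentivirus and the lines were selected with neomycin. No further treatment is named for either group. The paper describes the hairpin lines as stable lines, and nothing in the labels says whether libraries of a group came from separate cultures, so the tests measure only the spread between these libraries. Total RNA libraries that keep the strand of the transcript were used, and the counts are reads per gene on the strand of the gene.

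Reads on genes ranged from 23362197 to 33044061 per library in sh-control and from 12257054 to 26145877 in sh-RREB1. RREB1 itself stood at 27.1, 25.2 and 26.6 reads per 1e+06 reads on genes (CPM) in sh-control, against 23.7, 24.6 and 23.2 CPM in those labelled sh-RREB1. The log2 fold change was −0.14 (SE 0.13), with a Benjamini-Hochberg adjusted p of 0.486 in the quasi-likelihood test of edgeR, and the groups did not overlap. With a correction for GC content described below it was −0.36 (95% interval −0.63 to −0.10, adjusted p = 0.0534). Neither value passed the threshold used here, so every direction below is between libraries as labelled. Of the mapped reads of sh-RREB1 replicate 3, 52.1% mapped to several places, against 3.66% to 7.63% in the other libraries. Sh-control replicate 1 stood apart from the other controls along the GC content of genes, as described below. The 6 markers of HEK293 cells (VIM, NEFL, NEFM, CDH2, PAX2, LHX1) had reads in each library. PAX2 was near the floor, with 33 reads in all libraries together, and LHX1 had 248. Most of the sum of the 6 came from VIM. Per 1e+06 reads on genes, without the normalised library sizes used for CPM, that sum was 459 to 480 in the controls and 732 to 795 in sh-RREB1. Of the markers of other cells, TYR had no reads, and PTPRC, CDH5, MYOD1 and ALB had 9, 8, 15 and 53 reads in all libraries together. The part of these library differences in the values below was not tested, other than by the correction for GC content and the fits without single libraries.

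Proteins made in the ER leave it in vesicles coated with COPII, and soluble proteins need a transmembrane receptor to be gathered into them. LMAN1, also called ERGIC-53, is a lectin that cycles between the ER and the ER-Golgi intermediate compartment, and together with the small soluble calcium-binding protein MCFD2 it carries coagulation factors V and VIII. Loss of either partner in people causes combined deficiency of both factors. Vesicles coated with COPI return the receptors, along with ER residents that KDEL receptors have captured in the Golgi. In bulk RNA, fewer cells of a type and less RNA per cell cannot be told apart.

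MCFD2 and LMAN2 hold the lowest and the highest fold changes of the set, and LMAN1 is the partner of MCFD2. The start regions of these 3 genes are therefore shown. They come from RefSeq on GRCh38.p14, run 5′ to 3′ on the strand of the gene, and cover 250 bases before and 50 bases after an annotated start. Windows were found for 8 of 10 genes and not for ERGIC1 or KDELR2. Capitals mark CCAAT, the pentamer bound by NF-Y, read on the strand shown. MCFD2 had 3 annotated starts, and the 2 windows below do not overlap.
MCFD2, upstream start, chr2:46916063-46916362, minus strand: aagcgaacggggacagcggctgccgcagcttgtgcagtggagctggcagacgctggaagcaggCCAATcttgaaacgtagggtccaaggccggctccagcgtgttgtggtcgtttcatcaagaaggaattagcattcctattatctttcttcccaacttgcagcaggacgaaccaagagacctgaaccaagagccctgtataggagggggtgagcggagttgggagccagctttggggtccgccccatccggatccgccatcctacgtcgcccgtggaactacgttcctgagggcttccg
MCFD2, downstream start, chr2:46915757-46916056, minus strand: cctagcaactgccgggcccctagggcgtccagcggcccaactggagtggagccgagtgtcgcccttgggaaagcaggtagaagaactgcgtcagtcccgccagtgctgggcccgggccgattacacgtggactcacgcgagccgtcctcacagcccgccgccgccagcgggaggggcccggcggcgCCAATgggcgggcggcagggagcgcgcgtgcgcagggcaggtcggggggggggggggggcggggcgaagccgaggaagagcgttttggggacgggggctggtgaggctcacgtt
LMAN1, chr18:59359216-59359515, minus strand: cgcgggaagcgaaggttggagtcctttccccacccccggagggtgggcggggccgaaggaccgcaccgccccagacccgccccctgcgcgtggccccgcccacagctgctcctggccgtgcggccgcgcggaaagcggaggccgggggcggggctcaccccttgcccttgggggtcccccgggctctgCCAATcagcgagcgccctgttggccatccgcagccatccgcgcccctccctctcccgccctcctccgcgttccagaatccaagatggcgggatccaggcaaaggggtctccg
LMAN2, chr5:177351619-177351918, minus strand: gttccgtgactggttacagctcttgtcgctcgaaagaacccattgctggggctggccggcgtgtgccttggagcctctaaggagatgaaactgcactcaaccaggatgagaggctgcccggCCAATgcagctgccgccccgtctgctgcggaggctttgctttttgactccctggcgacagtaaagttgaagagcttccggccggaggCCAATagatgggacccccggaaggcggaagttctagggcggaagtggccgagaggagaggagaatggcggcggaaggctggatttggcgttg
The upstream MCFD2 window was 58.3% GC and the downstream window 73.3% GC, against a median of 58.7% over the 35116 windows of all genes. Each of these MCFD2 windows held 1 CCAAT, starting 187 bases before the upstream start and 64 bases before the downstream start. LMAN1 held 1, and LMAN2 held 2. Among the other genes LMAN2L held 3 and ERGIC3 held 1, while the SURF4, ERGIC2 and KDELR1 windows held none. CCAAT or its reverse complement occurred in 34.6% of all windows. The ER stress response element, in which CCAAT is followed by CCACG after 9 bases, was in no window of the set and in 0.0769% of all windows. The letters ACCACCC, taken from the known binding motif of RREB1, were also in no window of the set, and were in 4.77% of all windows on either strand. A match here is a description of letters and not of a bound site, and a missing match says only that the letters are not in this window.

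MCFD2 was the gene of the set with the largest fall. Levels were 250, 245 and 239 CPM in the controls and 95.4, 101 and 103 CPM in sh-RREB1. The groups were far apart, and the spread within each was small, with the highest library above the lowest by a factor of 1.04 in sh-control and 1.08 in sh-RREB1. The means were 245 ± 5.34 and 99.8 ± 3.92 CPM (SD, n = 3 each), and MCFD2 fell by 59.2% (95% interval −64.9% to −52.6%). The log2 fold change was −1.29 (SE 0.10), and it rested on 26404 reads over the 6 libraries. A gene was called when the adjusted p was below 0.01 and the absolute log2 fold change above 1. As a description, the values of MCFD2 lay past both limits, as those of only 1 of the 10 genes (10%), where 3.41% of the 23304 genes tested were called, 2.71% as higher and 0.699% as lower. As MCFD2 was picked with this contrast in view, neither that share nor its call is a test of it. Without sh-RREB1 replicate 3 or without sh-control replicate 2 MCFD2 was not called, although its log2 fold change was −1.32 in both of these fits, in which 8 and 9 genes of all were called.

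MCFD2 lies on the minus strand of chromosome 2 (chr2:46901870-46941855, GRCh38). Neither of its protein-coding neighbours was called. SOCS5, a suppressor of cytokine signalling on one side, ran from 32.3 to 42.0 CPM in the controls and from 25.2 to 36.2 CPM in sh-RREB1, with a log2 fold change of −0.24 (SE 0.18, adjusted p = 0.377, edgeR). TTC7A, which encodes a scaffold of the lipid kinase complex at the plasma membrane, overlaps MCFD2 by 25987 bases on the other strand, and its annotated start at base 46915869 lies inside the downstream MCFD2 window printed above. TTC7A was at 4.57, 9.31 and 8.79 CPM in the controls and at 11.5, 15.5 and 12.5 CPM in sh-RREB1, so the groups did not overlap. Its log2 fold change was 0.80 (SE 0.27, adjusted p = 0.0691, edgeR), opposite in sign to MCFD2 and short of the threshold. Reads on the opposite strand of MCFD2 numbered between 1 and 11 per library. A processed copy of the gene, MCFD2P1 on chromosome 6, held 9 reads in all libraries together. Reads mapped to several places are left out of the counts. The 9 reads therefore cannot show how many reads fit both MCFD2 and the copy.

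LMAN1, the lectin partner of MCFD2, was also lower in each library labelled sh-RREB1. LMAN1 was at 354, 322 and 301 CPM in the controls and at 279, 184 and 240 CPM in sh-RREB1. The groups did not overlap, but the highest sh-RREB1 library lay close under the lowest control. Its log2 fold change was −0.47 (SE 0.15, 95% interval −0.82 to −0.12), which met neither part of the call. LMAN1 (chr18:59327823-59359265) has AT-rich exons, with 36.5% GC, and the correction for GC content described below left −0.28 (95% interval −0.45 to −0.11).

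The ratio of the partners was higher in the libraries labelled sh-RREB1, without a test since both are genes of the set. Per kilobase of exon, LMAN1 stood to MCFD2 as 1.39, 1.29 and 1.23 to 1 in the sh-control libraries. In the libraries labelled sh-RREB1 the ratios were 2.86, 1.78 and 2.29. The means were 1.30 ± 0.079 and 2.31 ± 0.54 (SD, n = 3 each), and all 3 sh-RREB1 libraries were above all 3 controls. The spread of the second group comes from LMAN1, whose sh-RREB1 libraries differed by a factor of 1.52, and not from MCFD2.

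LMAN2, also called VIP36, is a lectin of the same leguminous type that binds high-mannose glycans in the early secretory pathway, and it had the highest fold change of the set. LMAN2 was at 14.8, 41.3 and 54.4 CPM in the controls and at 82.6, 111 and 92.2 CPM in sh-RREB1. All sh-RREB1 libraries were above all controls, but the controls themselves differed by a factor of 3.68, and sh-control replicate 1 was the low library. The log2 fold change was 1.37 (SE 0.38, 95% interval 0.50 to 2.23), past the fold threshold and not past that on the adjusted p. Without sh-control replicate 1 it was 0.96 (95% interval 0.59 to 1.32), and with the correction for GC content 0.93 (95% interval 0.43 to 1.43). LMAN2 was not called in the edgeR fit given here or with the correction. It was called by DESeq2 and by edgeR with a minimum of 1 read. A fit with the replicate number as a block also called it, with or without the correction. So did the fit with the correction when sh-control replicate 3 was left out (1.19).

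LMAN2L, a relative of LMAN2 that stays in the ER, was at 43.4, 61.5 and 58.3 CPM in the controls and at 42.4, 59.4 and 48.4 CPM in sh-RREB1. The groups overlapped over most of their range, and the log2 fold change was −0.12 (95% interval −0.52 to 0.28). The 3 lectins measured here thus had a lower, a higher and an unresolved value in the same libraries. The fourth gene of the family, LMAN1L, had no reads in any library.

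**Figure D1:**
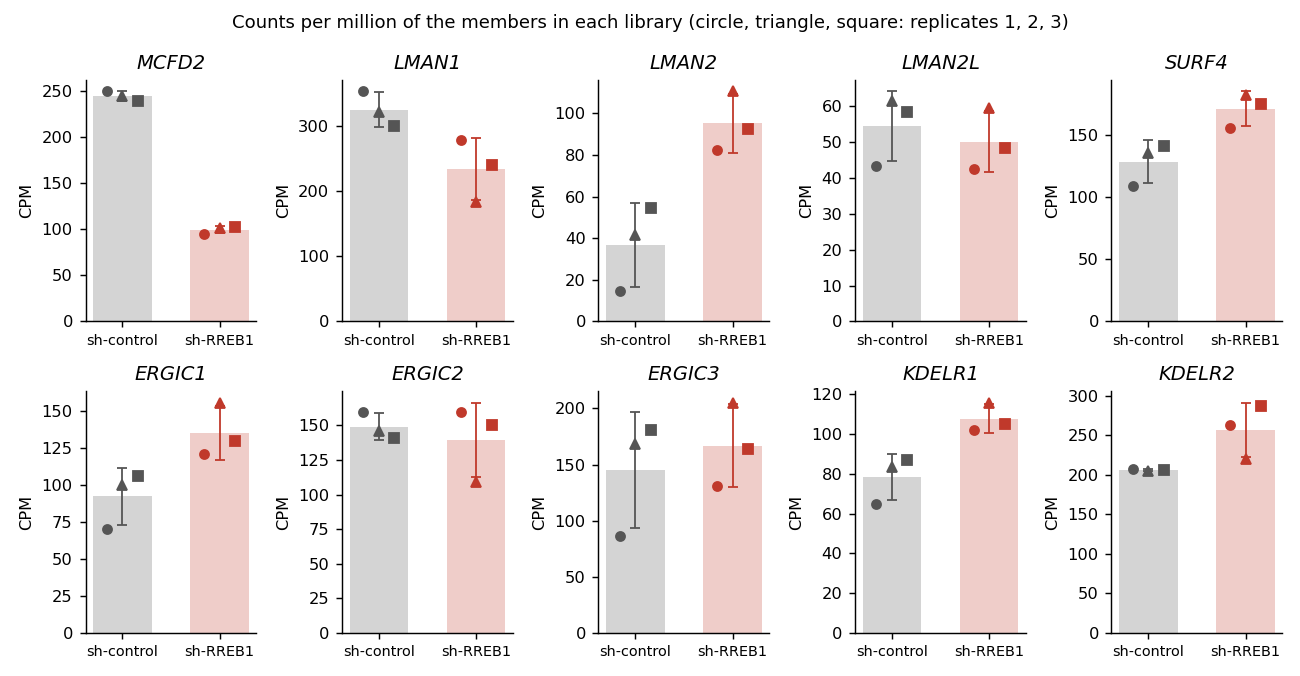
CPM (reads per 1e+06 reads on genes, vertical axes from 0) of each of the 10 genes in the 3 sh-control (grey) and 3 sh-RREB1 (red) libraries. Symbols are single libraries, bars are means and error bars are SDs. MCFD2 is at 239 to 250 CPM in the controls and 95.4 to 103 CPM in sh-RREB1, and the circle of sh-control replicate 1 is the lowest control for LMAN2, LMAN2L, SURF4, ERGIC1, ERGIC3 and KDELR1.

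SURF4 is a membrane receptor of the ER that exports a wide range of soluble cargo, lipoproteins among them. SURF4 was at 108, 135 and 141 CPM in the controls and at 155, 182 and 175 CPM in sh-RREB1. The groups did not overlap, and the log2 fold change was 0.41 (SE 0.13, 95% interval 0.12 to 0.71). With the correction for GC content the value was 0.09 (95% interval −0.09 to 0.27).

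The ERGIC proteins are membrane proteins that cycle between the ER and the intermediate compartment, where ERGIC2 and ERGIC3 form a complex with ERGIC1. ERGIC1 was at 70.5, 99.9 and 106 CPM in the controls and at 121, 156 and 129 CPM in sh-RREB1, with no overlap and a log2 fold change of 0.55 (SE 0.17, 95% interval 0.17 to 0.94). It stayed above 0 with the correction, at 0.31 (95% interval 0.10 to 0.51). ERGIC2 was at 160, 146 and 141 CPM in the controls and at 160, 109 and 150 CPM in sh-RREB1, and the groups overlapped (log2 fold change −0.10, 95% interval −0.44 to 0.24). ERGIC3 was at 86.1, 168 and 181 CPM in the controls and at 131, 205 and 164 CPM in sh-RREB1. Its groups overlapped as well (0.20, 95% interval −0.41 to 0.81), and the sign turned without sh-control replicate 1 (−0.10). The intervals of the 3 subunits overlapped, so a difference between their values is not resolved. As a description, the interval of ERGIC1 lay above 0 and those of ERGIC2 and ERGIC3 spanned it.

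KDELR1 and KDELR2 are receptors that bind the KDEL tail of escaped ER residents in the Golgi. KDELR1 was at 65.0, 83.3 and 86.9 CPM in the controls and at 102, 116 and 105 CPM in sh-RREB1. The groups did not overlap and the log2 fold change was 0.46 (SE 0.13, 95% interval 0.15 to 0.76), but KDELR1 has the GC-richest exons of the set, and with the correction the sign turned (−0.11, 95% interval −0.34 to 0.11). KDELR2 was at 207, 205 and 207 CPM in sh-control, the tightest control group of the set, and at 264, 220 and 288 CPM in sh-RREB1. The log2 fold change of KDELR2 was 0.32 (SE 0.12, 95% interval 0.05 to 0.58) and was larger with the correction, at 0.50 (95% interval 0.29 to 0.72).

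KDELR3, the remaining KDEL receptor, is not one of the 10 and had the opposite sign. KDELR3 was at 40.3, 34.2 and 31.9 CPM in the controls and at 22.2, 22.9 and 19.0 CPM in sh-RREB1, with no overlap. KDELR3 had a log2 fold change of −0.73 (SE 0.15, adjusted p = 0.0133, edgeR), and −0.53 with the correction (adjusted p = 0.00670), under the fold threshold in both. Per kilobase of exon the ratio of KDELR3 to KDELR2 was 0.353 ± 0.043 in sh-control and 0.174 ± 0.039 in sh-RREB1 (SD, n = 3 each), without overlap. The ratio of KDELR1 to KDELR2 was 0.666 ± 0.10 and 0.747 ± 0.15, and there the groups overlapped.

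Over the set, 7 of 10 genes had groups that did not overlap in CPM, 5 of them with sh-RREB1 higher and 2 with sh-RREB1 lower. Among all genes tested 41.1% had groups that did not overlap, and among those with a mean log2 CPM above 0 it was 52.8%. The median log2 fold change of the 10 genes was 0.26, against 0.01 for all genes. With the correction the median of the set was 0.05 (all genes −0.03), and with sh-control replicate 1 left out it was 0.10. With the correction 3% of all genes were called, and MCFD2 was again the only one of the 10. Summed per kilobase of exon, the 10 genes came to 298 ± 18.5 CPM in the controls and 306 ± 8.28 CPM in sh-RREB1 (SD, n = 3 each). The groups overlapped, so with this length the opposite differences left the sum within the spread of the libraries. The sum was not taken with another length, and levels depend on the length used, as described below.

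**Figure D2:**
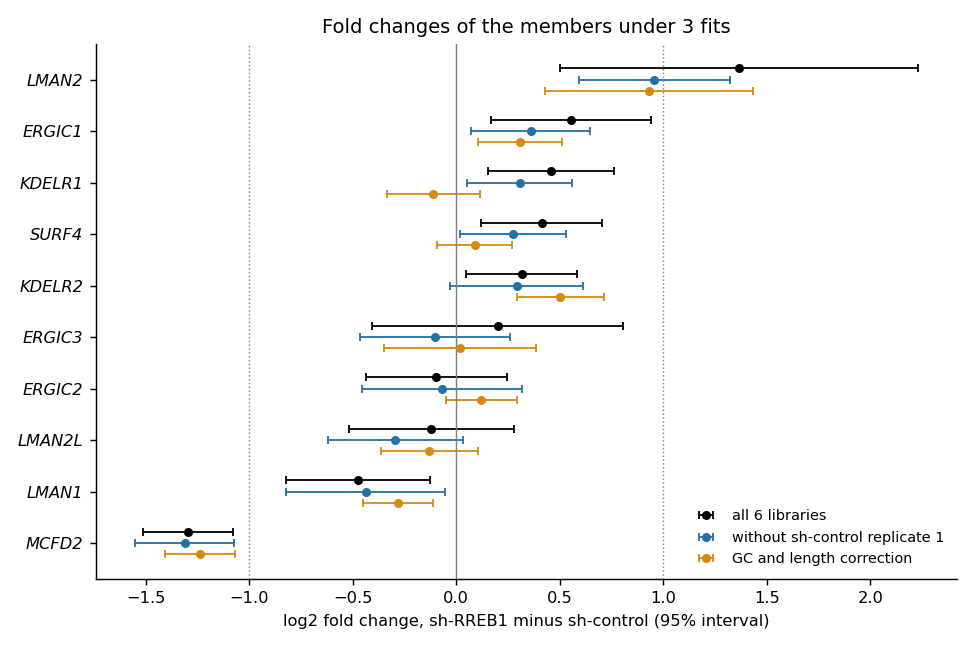
Log2 fold change (sh-RREB1 minus sh-control, horizontal axis) of each gene with its 95% interval from all 6 libraries (black), without sh-control replicate 1 (blue) and with the GC and length correction (orange); dotted lines mark the fold threshold of the call. MCFD2 lies between −1.31 and −1.24 in all 3, while KDELR1 goes from 0.46 to −0.11 with the correction.

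The GC content of the exons moved with these values. Genes with a mean log2 CPM above 0 were split into 5 equal bins by GC content, and the median log2 fold change of a bin was −0.25, −0.24, −0.10, 0.20 and 0.84 from the lowest to the highest. Sh-control replicate 1 was below the mean of replicates 2 and 3 by a median of −0.87 log2 CPM in the GC-richest bin and above it by 0.23 in the poorest. Without that library the trend between the groups remained, with medians of −0.20, −0.22, −0.14, 0.07 and 0.58 in the same bins. Of the set, LMAN1 (36.5% GC) and ERGIC2 (37.4%) were in the poorest bin and KDELR1 (57.2%) in the richest. LMAN2 (55.6%), SURF4 (54.3%), ERGIC1 (52.3%), ERGIC3 (52.2%) and LMAN2L (50.1%) were in the fourth, KDELR2 (43.7%) in the second and MCFD2 (47.0%) in the third. MCFD2 lay far below the median of its bin, and its value was −1.24 (95% interval −1.41 to −1.07) once each library's trend along GC content and length was removed. Because the groups differ in that trend, the correction can also remove a true difference that follows GC content.

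**Figure D3:**
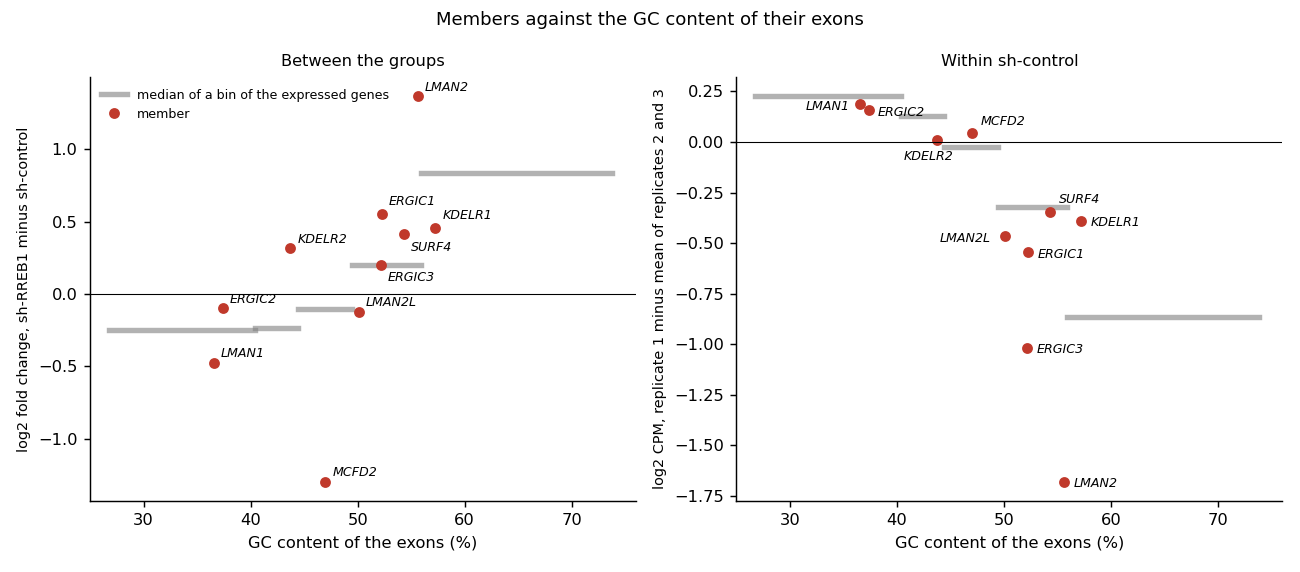
GC content of the exons (horizontal axes, percent) against the log2 fold change between the groups (left) and against the difference of sh-control replicate 1 from the mean of replicates 2 and 3 in log2 CPM (right). Grey bars are medians of 5 equal bins of the expressed genes and red points are the 10 genes; MCFD2, at 47.0% GC and −1.29, lies well below the bar of its bin at −0.10.

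To compare levels between genes, CPM was divided by exonic length. In sh-control the order was LMAN1 (53.6 ± 4.42 CPM per kilobase, SD, n = 3), KDELR2 (52.5 ± 0.25), MCFD2 (41.2 ± 0.90), SURF4 (37.2 ± 5.02), KDELR1 (34.9 ± 5.25), ERGIC2 (25.6 ± 1.67), ERGIC3 (24.2 ± 8.58), LMAN2L (20.1 ± 3.57), ERGIC1 (5.51 ± 1.14) and LMAN2 (3.47 ± 1.90). Of the 9 pairs of neighbours in that order, 3 did not overlap between libraries, namely KDELR2 above MCFD2, KDELR1 above ERGIC2 and LMAN2L above ERGIC1. The other 6 steps of the order are not resolved. In sh-RREB1 MCFD2 was at 16.8 ± 0.66 CPM per kilobase and stood at rank 8 rather than 3. The order depended on the length used. Per kilobase of the canonical transcript ERGIC3 came first, at 111 ± 39.5 CPM per kilobase in sh-control, and 2 of the 10 genes kept their rank. MCFD2 was then at rank 4 in sh-control and at rank 9 in sh-RREB1.

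**Figure D4:**
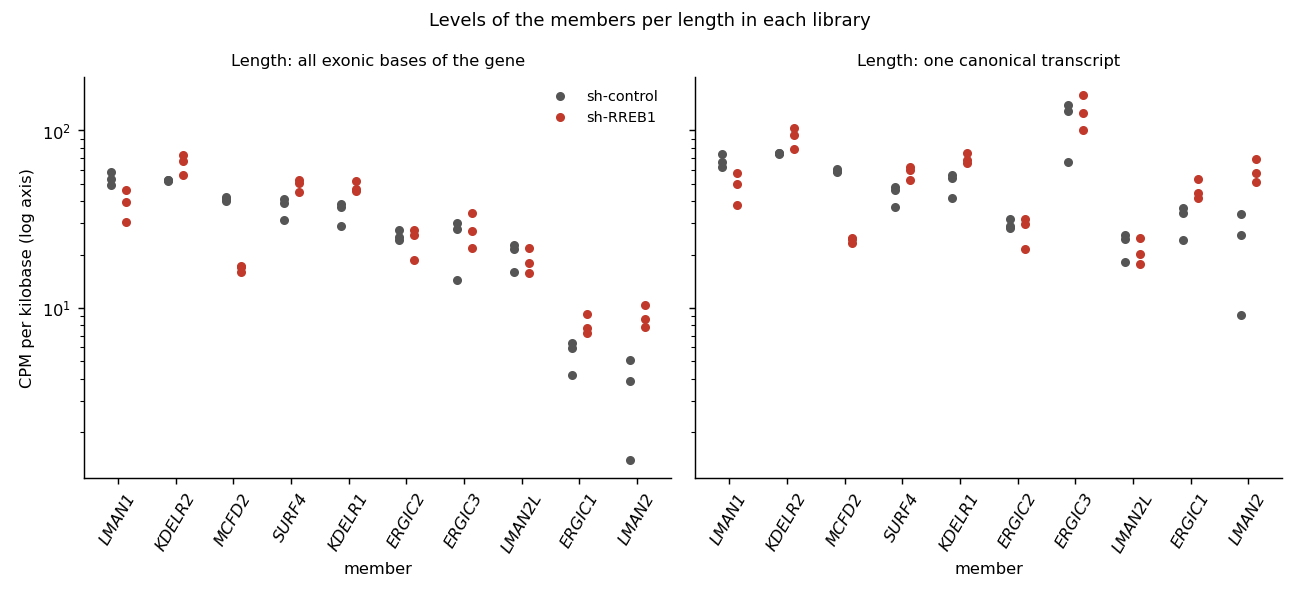
CPM per kilobase (log axis) of the 10 genes in each library, with all exonic bases of the gene (left) or one canonical transcript (right) as the length; grey points are sh-control and red points sh-RREB1 libraries. MCFD2 moves from rank 3 to rank 8 on the left and from rank 4 to rank 9 on the right, and the place of ERGIC3, ERGIC1 and LMAN2 among the others differs between the panels.

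The profile of MCFD2 over the 6 libraries was compared with that of 14482 genes with a mean of at least 1 CPM, as the root mean square difference of log2 CPM after each gene was centred on its own mean. The nearest 5 were DCDC1 (0.0492), NUDT7 (0.0578), BBOF1 (0.0644), GPSM2 (0.0719) and ZNF91 (0.0751). As the group difference is part of the profile, these genes share the fall of MCFD2 by construction, and shared regulation was not tested. GPSM2, an adaptor that orients the mitotic spindle, was the most abundant of them, at 106 to 118 CPM in the controls and 46.4 to 49.1 CPM in sh-RREB1. NUDT7, a peroxisomal coenzyme A hydrolase, was at 8.54 to 8.88 CPM in the controls and 3.52 to 3.71 CPM in sh-RREB1. LMAN1 was the closest of the other 9 genes of the set, at rank 2171 with a difference of 0.451, and LMAN2 the farthest, at rank 13982.

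The rest of the route was followed in 6 lists of 91 genes. They were chosen by function, but with earlier results of these data known. The lists were further cargo receptors, the COPII coat, the COPI coat with ARF proteins, tethers and SNAREs, soluble ER residents, and cargo of LMAN1-MCFD2 or SURF4. Of the 91 genes, 85 had the 10 reads needed for the test. Among them 3 were called (3.53%, against 3.41% of all genes), 2 higher and 1 lower. The median log2 fold change of the 85 was 0.03, with 44 values above 0 and 41 below. With the correction only 1 stayed called, and DESeq2 called 11, of which 10 were higher. P-values of list genes were adjusted over all 23304 genes by Benjamini-Hochberg, in the quasi-likelihood test of edgeR. Because of how the lists were chosen, these p-values and calls describe the genes and are not independent tests of them.

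The gene called lower was F8, which encodes coagulation factor VIII, a cargo of LMAN1-MCFD2. F8 was at 10.1, 10.5 and 9.57 CPM in the controls and at 4.07, 3.13 and 3.09 CPM in sh-RREB1, so the lowest control was above the highest sh-RREB1 library by more than the spread within either group. In edgeR, F8 had a log2 fold change of −1.54 (SE 0.18, adjusted p = 0.00273) and −1.38 with the correction (adjusted p = 0.000109), and it was the list gene that stayed called. Leaving out sh-RREB1 replicate 1, 2 or 3 or sh-control replicate 2 ended its call without the correction (adjusted p = 0.0119, 0.0114, 0.0242 and 0.0279), with log2 fold changes from −1.69 to −1.47. With the correction F8 was called whichever library was left out. F5, the gene of the other coagulation factor of the pair, had 25 reads in all libraries together and was not resolved (log2 fold change −2.38, SE 1.03, adjusted p = 0.14). Of the other cargo genes, CTSC, a lysosomal protease, was at 43.4 to 47.2 CPM in the controls and 51.5 to 53.6 CPM in sh-RREB1 (0.23, SE 0.11, adjusted p = 0.188). SDF4, which encodes the Golgi calcium-binding protein Cab45, had a log2 fold change of 1.53 (SE 0.40, adjusted p = 0.0289) that was 0.36 with the correction. SERPINA1, MMP9 and EPO had under 10 reads.

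Among the further cargo receptors none of 16 tested was called. TMED4 of the p24 family, receptors that bridge cargo to both coats, was at 48.5, 60.5 and 62.0 CPM in the controls and at 110, 104 and 101 CPM in sh-RREB1. The difference of 0.88 on the log2 scale (SE 0.13, adjusted p = 0.00425) passed the p threshold and not that on the fold, and was 0.91 with the correction. TMED1, with 61.3% GC, had 1.32 (SE 0.40, adjusted p = 0.0484) and 0.45 with the correction.

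In the COPII list 1 of 14 genes was called. SEC16A, a scaffold of ER exit sites, rose from 27.6, 23.2 and 26.0 CPM to 65.9, 65.4 and 47.9 CPM (log2 fold change 1.22, SE 0.16, adjusted p = 0.00349). With the correction it was 0.67 (adjusted p = 0.0283) and no longer called, and of the fits without 1 library only that without sh-control replicate 1 called it. Adjusted p-values without sh-control replicates 2 or 3 were 0.0323 and 0.0102, and without sh-RREB1 replicates 1, 2 or 3 they were 0.0167, 0.0118 and 0.0183. PREB, the exchange factor of SAR1, followed with 0.38 (adjusted p = 0.357). Its value was 0.08 without sh-control replicate 1, and the sign turned with the correction (−0.22).

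In the COPI list 1 of 16 genes was called, ARF1, the small GTPase that starts coat assembly. It rose from 106, 152 and 182 CPM to 305, 349 and 303 CPM (log2 fold change 1.12, SE 0.18, adjusted p = 0.00632). With the correction its log2 fold change was 0.57 (adjusted p = 0.000720), under the fold threshold. Leaving out any library but sh-control replicate 3 ended the call. Without sh-control replicate 1 its log2 fold change was 0.90, and without sh-control replicate 2 or sh-RREB1 replicate 1, 2 or 3 the adjusted p was 0.0407, 0.0217, 0.0220 and 0.0325. Groups did not overlap for 12 of the 16 genes, 8 of them with sh-RREB1 lower, where 41.1% of all genes tested and 52.8% of those with a mean log2 CPM above 0 did not overlap. These 8 were COPA, COPB1, COPB2, ARCN1, COPG2, COPZ1 and COPZ2, subunits of coatomer, and ARFGAP3. COPZ2 was near the floor, with 70 reads in all libraries together. Its log2 fold change was −1.33 (SE 0.48, adjusted p = 0.0862), and −1.63 with the correction. COPB1 had an adjusted p of 0.00767 with a log2 fold change of −0.53 (SE 0.09), and with the correction −0.28 (adjusted p = 0.0310). With the correction COPA was at −0.14, ARCN1 at −0.08, COPG2 at −0.25, COPB2 at −0.33 and COPZ1 at −0.53, and of these only COPZ1 had an adjusted p below 0.01 (0.00120). COPE, a further subunit with 63.0% GC, had 1.62 (SE 0.44, adjusted p = 0.0337) and 0.56 with the correction, and ARFGAP1 had 1.27 (SE 0.34, adjusted p = 0.0311) and 0.25.

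Among 15 tethers and SNAREs none was called. USO1, the tether p115 that captures vesicles at the Golgi, was at 362, 354 and 324 CPM in the controls and at 229, 186 and 209 CPM in sh-RREB1. USO1 had a log2 fold change of −0.74 (SE 0.11, adjusted p = 0.00517), under the fold threshold, and −0.48 with the correction. RAB1B had 1.09 (SE 0.34, adjusted p = 0.0525) and 0.25 with the correction.

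Among 17 soluble ER residents none was called and the median log2 fold change was 0.03. HSPA5, the main chaperone of the ER lumen and a ligand of KDEL receptors, ran from 142 to 274 CPM in the controls and from 161 to 239 CPM in sh-RREB1 (log2 fold change 0.02, SE 0.24, adjusted p = 0.969). SDF2L1 and CRELD2, both induced by ER stress, had 1.37 (SE 0.39, adjusted p = 0.0399) and 1.14 (SE 0.31, adjusted p = 0.0332), and 0.14 and 0.52 with the correction. HSPA5, CTSC, COPB1 and the other coatomer subunits were named after their values were seen.

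**Figure D5:**
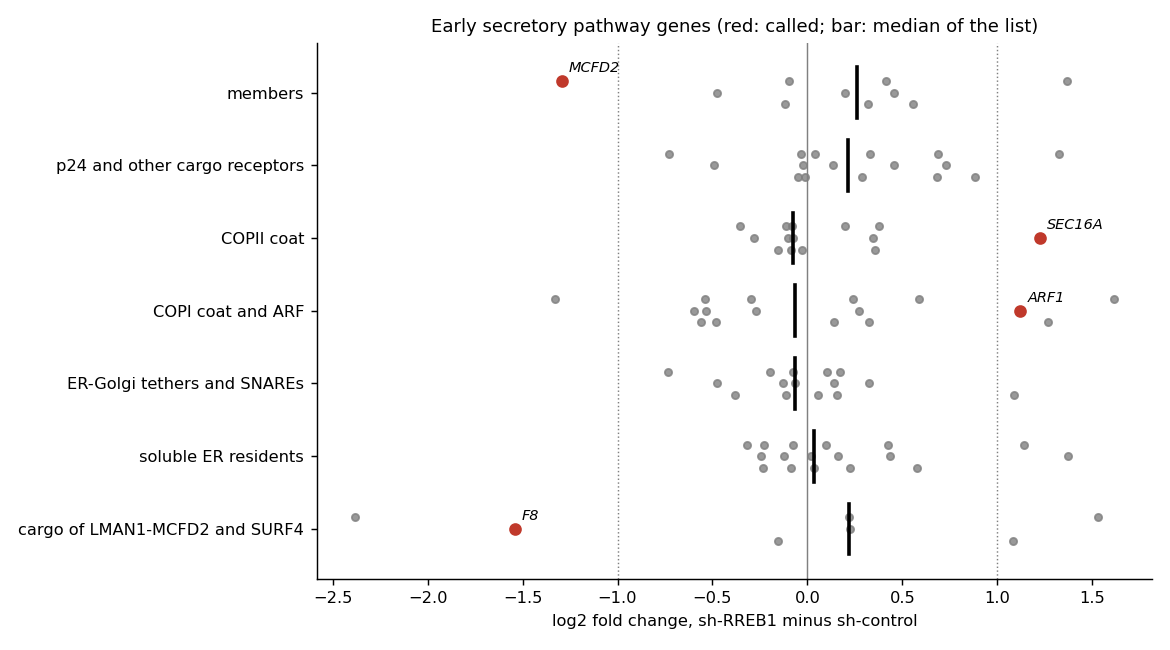
Log2 fold change (horizontal axis, sh-RREB1 minus sh-control) of the 10 genes ("members") and of the tested genes of each list; each point is a gene, red points were called, black bars are medians and dotted lines mark the fold threshold. MCFD2 and F8 are the points called lower and SEC16A and ARF1 those called higher; the far left point of the cargo list is F5, with 25 reads in all.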

How the data were processed

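RNA-seq of HEK293T cells was used, with 3 sh-control and 3 sh-RREB1 libraries grouped by their labels. The authors aligned the reads to hg38 (Gencode version 25) by STAR. The deposited values are its unnormalised counts of reads per gene, per strand and per library, and a table that merges them. All 24635 identifiers of the merged table held the same counts as column 4 of the library tables, the strand of the gene, which was used. The 4 summary lines of each library table (reads without a gene or on several) were left out. Reads without a gene made up 19.2% to 33.1% of the mapped reads of a library. Of 58037 identifiers, those sharing a symbol were reduced to the one with most reads, and 23304 genes with at least 10 reads over the 6 libraries were tested with edgeR 4.0.16 (quasi-likelihood, TMM, group as the only term) in R 4.3.3. Calls needed a Benjamini-Hochberg adjusted p under 0.01 together with a log2 fold change beyond 1 in either direction, the thresholds of the study, which used DESeq2. CPM uses TMM library sizes. A correction fitted natural splines (5 degrees of freedom) of log2 CPM on exonic GC content and length in each library and entered them as an offset. Positions, lengths and GC content are from Gencode version 44 on GRCh38.

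DESeq2 1.42.0, other size factors and filters, both strands together, the merged table, the correction, a replicate block and fits without each library were tried as alternatives. The fit was tested on simulated counts with known changes before it was used. Depth and 3 libraries per group limit precision. The closest libraries, sh-control replicates 2 and 3, differed by a chi-square of 4.69 per degree of freedom, above sampling noise. They were therefore not treated as repeat sequencing of the same library. This value cannot show whether libraries came from separate cultures, so the independence of the replicates is not established.

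The genes and lists were chosen with earlier results of these data known. Named with values are RREB1, the 10 genes, KDELR3 and LMAN1L, list genes that were called, the 2 largest changes per list with a mean of at least 1 CPM, the protein-coding neighbours of MCFD2 and the 5 nearest profiles. A further marker of other cells and a further cargo gene are not reported here.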

Additional observations from a re-analysis of the deposited data

How the results depend on the processing

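Over 21 alternatives the sign of the log2 fold change was kept in each for MCFD2 (−1.34 to −1.21), LMAN1 (−0.62 to −0.25), LMAN2 (0.65 to 1.73), LMAN2L, SURF4 (0.05 to 0.48), ERGIC1 and KDELR2, in 17 for ERGIC3, in 13 for KDELR1 and in 12 for ERGIC2. Of the 23304 genes tested, 794 were called, 1647 by DESeq2 and 4567 at an adjusted p below 0.05 with no minimum fold. With a minimum of 1 read, where more genes entered the test, 1801 were called. Of the 10 genes the call took in 2 under DESeq2 or the minimum of 1 read (MCFD2 and LMAN2) and 3 at the looser threshold. Of the list genes it took in 11 under DESeq2 or the minimum of 1 read, 22 at the looser threshold and 1 with the correction for GC content and length. With the correction 60.5% of the genes called were higher in sh-RREB1, against 79.5% without it, a split of 422 higher and 276 lower against 631 and 163. The cause of these differences was not tested.

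Leaving out 1 library gave 8 to 1117 genes called, 0 to 1 of the 10 and 0 to 4 of the list genes. Fewest genes were called without sh-RREB1 replicate 3 (8), sh-control replicate 2 (9) or sh-RREB1 replicate 1 (25), and 136 and 383 without sh-RREB1 replicate 2 and sh-control replicate 3. Leaving out 1 library together with the correction, an alternative chosen after seeing the data, gave 463 to 711 genes (490 without sh-RREB1 replicate 1 and 507 without sh-control replicate 2), 1 to 2 of the 10 and 1 to 2 of the list genes, with MCFD2 and F8 called in 6 of 6 fits.

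The groups share replicate numbers. Deviations of same-numbered libraries from their group means correlated at r = 0.50, 0.43 and −0.28 over 14332 genes, and not every library correlated best with its own number, so the number is not taken as a pairing. With the replicate number as a block, 1684 genes, 2 of the 10 (MCFD2 and LMAN2) and 11 of the list genes were called, and with the block and the correction 866, 2 (again MCFD2 and LMAN2) and 1. The log2 fold change of RREB1 was −0.14 with the block (adjusted p = 0.513, edgeR) and −0.36 with both (adjusted p = 0.0113, edgeR).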

Other observations

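Reads on the strand opposite to each of the 10 genes were also counted. They made up at most 1.33% of the reads of both strands at any of the 10 genes in any library. None of the 6 with at least 10 such reads in all had more of them, per 1e+06 reads on genes, in each sh-RREB1 library than in each sh-control library, where 17.3% of the 15673 genes with that many did. LMAN2, with 6 such reads, had 0, 1 and 0 in sh-control and 1, 3 and 1 in sh-RREB1.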
